A study of Mus musculus with 5 samples.

Results

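Many amino acid and peptide transporters of the mouse are encoded by 8 families of solute carrier genes, Slc1a, Slc3a, Slc6a, Slc7a, Slc15a, Slc36a, Slc38a and Slc43a. Every gene of the count table whose symbol belonged to 1 of these families was taken as a member, whatever its level, which gave 66 of 23420 genes. All 66 are annotated as protein-coding in GENCODE vM21. Family names and not transport tests set the membership, so Slc6a2, the noradrenaline transporter, and Slc43a3, a carrier of purine nucleobases, were members too. Their RNA was measured in the luminal layer of uteri of wild-type C57BL/6N mice, the epithelium that lines the uterine lumen and receives the embryo. Pregnancy was dated from the vaginal plug, on day 1, and 1 library per condition was made: on day 3 in the morning, on day 4 in the morning and in the evening, and on day 5 in the morning as a pair. The day 5 pair held the layer away from the attached embryo, labelled Mpole, and the layer around it, labelled Ampole. In the paper M and AM stand for the mesometrial and anti-mesometrial poles of the uterus. If the labels mean the same, nearness to the embryo and pole cannot be told apart in these libraries. All 5 groups share the genotype and strain and carry no transgene or deletion. Day 5 mice had received a 1% solution of Chicago blue dye, which marks implantation sites. The paper's methods describe pooling RNA of several independent samples into 1 library per group for its microdissected Lif-floxed and Lif-deleted uteri, and whether these wild-type libraries were pooled in the same way is not given in the sources used here.

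Solute carriers move amino acids by several routes. Sodium-coupled carriers of the Slc1, Slc6 and Slc38 families concentrate amino acids in the cell, exchangers of the Slc7 family swap one amino acid for another, and carriers of the Slc15 family take up dipeptides and tripeptides together with protons. Several Slc7 proteins are light chains that reach the cell membrane only when bound to a heavy chain, Slc3a2 or Slc3a1. The uterine epithelium sets the amino acid content of the luminal fluid in which the embryo lies before and during attachment.

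Total counts ranged from 15334674 to 19529491, and Rn45s and Lars2 together took 14.98% to 23.2% of a library. Counts were scaled to counts per 1000000 (CPM) with trimmed mean of M values (TMM) factors. Levels of different genes were compared per length, as CPM per kilobase of gene length (RPKM). A mean of at least 1 CPM over the 5 libraries was required of a gene, which kept 34 members among 12918 genes. Changes are log2 differences of CPM with a prior count of 2, and "rose" or "fell" means a change beyond 1, which is 2-fold. Brackets hold, on the log2 scale, a 95% interval for the count ratio (exact, by the Clopper-Pearson method), which covers counting error only, and 3 counts, or 0.160 to 0.190 CPM, were taken as the floor. With 1 library per condition no difference has a replicate check, no p-value was computed, and each change compares a pair of libraries. Where 5 values follow a gene, they run in the order of the stages, with the day 5 value away from the embryo before the one around it.

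The libraries had the markers of their labelled tissue, since all 8 luminal epithelial markers were counted in every library, with summed levels of 4611, 4908, 4844, 3392 and 7445 CPM. The library around the embryo stood apart from the other 4. The embryonic genes Cdx2, Nanog, Pou5f1 and Gata4 had 0 counts in those 4 libraries and 154 counts in all, or 9.07 CPM, around the embryo. All 8 embryo and trophoblast markers were counted there, and without Sox17, which was abundant in every library, the list summed to 4.64 to 12.6 CPM in the 4 libraries and 103 CPM around the embryo. The 4 decidual markers summed to 6.35 to 13.9 CPM in the 4 libraries and 50.3 CPM around the embryo, of which Bmp2 gave 42.4 CPM, and Prl8a2 and Prl3c1 were at 0 in all 4. Smooth muscle markers summed to 10.6 to 31.4 CPM against 397 CPM, of which Des gave 359 CPM. Endothelial markers summed to 11.8 to 44.4 against 96.8 CPM, of which Cdh5 gave 72.4 CPM, while Emcn, Kdr and Tek were below the other day 5 library, at 1.59, 1.06 and 14.5 CPM against 4.21, 2.24 and 25.1 CPM. The 5 of 6 glandular epithelial markers in the table summed to 1.27 to 4.00 CPM in the 4 libraries and 13.0 CPM around the embryo, and Ttr was at 0 in all libraries. Leukocyte markers, 5 of 6 in the table, summed to 87.4 CPM around the embryo against 221 to 327 CPM, a sum carried by Lyz2 at 41.7 against 186 to 288 CPM, while Cd68 was higher there, at 39.4 against 10.03 to 17.4 CPM. Stromal markers summed to 551 to 632 CPM in the 4 libraries and 416 CPM around the embryo, with Col3a1 at 42.9 against 141 to 219 CPM but Hand2 at 134 against 3.96 to 20.7 CPM. The part of these markers in the results around the embryo was not tested. In bulk RNA of this kind fewer cells of a type and less RNA per cell cannot be told apart.

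The region before the start of Slc7a11 is shown because this gene differed most between the day 5 libraries. Those of Slc7a7 and Slc15a1 are shown too, and both genes were among the 11 members higher around the embryo than away from it. Slc7a7 was also the only other kept member with a match to the first element below, so its level alone did not select it. RefSeq (GRCm38.p6) gave windows for 47 of 66 members, 22 of the 34 kept. In these windows the 250 bases before the start were searched on both strands for TGATGNAA, the element bound by C/EBP-ATF dimers in the response to amino acid shortage, and for TTCNNNGAA, the element bound by Stat proteins. Capitals mark the matches.
Slc7a11, chr3:50443614-50443863, minus strand: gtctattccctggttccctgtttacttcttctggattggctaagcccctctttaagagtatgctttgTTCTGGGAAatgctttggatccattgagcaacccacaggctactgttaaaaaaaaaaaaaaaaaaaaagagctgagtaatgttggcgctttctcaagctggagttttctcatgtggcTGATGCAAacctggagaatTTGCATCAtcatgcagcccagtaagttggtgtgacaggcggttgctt
Slc7a7, chr14:54417945-54418194, minus strand: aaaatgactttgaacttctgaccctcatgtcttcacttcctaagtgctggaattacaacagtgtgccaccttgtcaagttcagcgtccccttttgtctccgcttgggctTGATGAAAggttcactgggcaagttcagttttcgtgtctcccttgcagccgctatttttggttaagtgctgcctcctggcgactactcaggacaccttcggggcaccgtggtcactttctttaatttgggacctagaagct
Slc15a1, chr14:121505255-121505504, minus strand: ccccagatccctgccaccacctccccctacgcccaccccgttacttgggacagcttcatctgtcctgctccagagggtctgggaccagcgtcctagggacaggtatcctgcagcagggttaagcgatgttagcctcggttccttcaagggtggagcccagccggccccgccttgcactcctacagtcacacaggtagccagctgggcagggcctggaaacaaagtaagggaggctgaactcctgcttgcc
Slc7a11 had TGATGCAA at positions -66 to -59 from the start, its reverse complement TTGCATCA at -47 to -40, and a Stat element at -183 to -175. Slc7a7 has 5 windows, and the one printed had a match at -141 to -134. An overlapping window of Slc7a7 had another at -243 to -236. The printed bases of Slc15a1 held neither element. TGATGNAA was present in 3.45% of all 32851 windows and in 3 of the 34 windows of kept members, those of Slc7a11 and Slc7a7. TTCNNNGAA was present in 7.02% of all windows and in 3 of the 34, with the other matches at -146 to -138 in Slc7a1 and -76 to -68 in Slc38a9. The 250 bases searched in this Slc7a1 window lie inside the gene, in an annotated exon of Slc7a1. A match describes these letters and does not show binding.

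Few members carried most of the transporter RNA. The summed level of all members was 1969, 2500, 2426, 2631 and 3975 CPM, and the 5 most abundant members of each library gave 67.7% to 85.3% of it. Slc6a14 was the most abundant member per length on day 3 morning, at 167 RPKM, and day 4 morning, at 189 RPKM. From day 4 evening onwards Slc1a1 led, at 176 RPKM on day 4 evening, 243 RPKM away from the embryo and 234 RPKM around it. Slc38a2 was second on day 4 evening at 155 RPKM, Slc1a5 was second away from the embryo at 138 RPKM, and Slc6a14 was second around it at 211 RPKM. In the order around the embryo Slc7a11 followed Slc38a2 with 72.2 RPKM (95% counting interval 70.8 to 73.5), next to Slc3a2 with 68.9 RPKM (66.6 to 71.2), and these intervals overlapped. Those of Slc1a5 (61.5 RPKM, 59.3 to 63.7) and Slc38a2 (59.8 RPKM, 58.1 to 61.5) on day 3 morning overlapped as well, as did those of Slc6a6 (70.3 RPKM, 68.8 to 71.8) and Slc6a14 (68.3 RPKM, 66.3 to 70.3) away from the embryo.

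**Figure D1:**
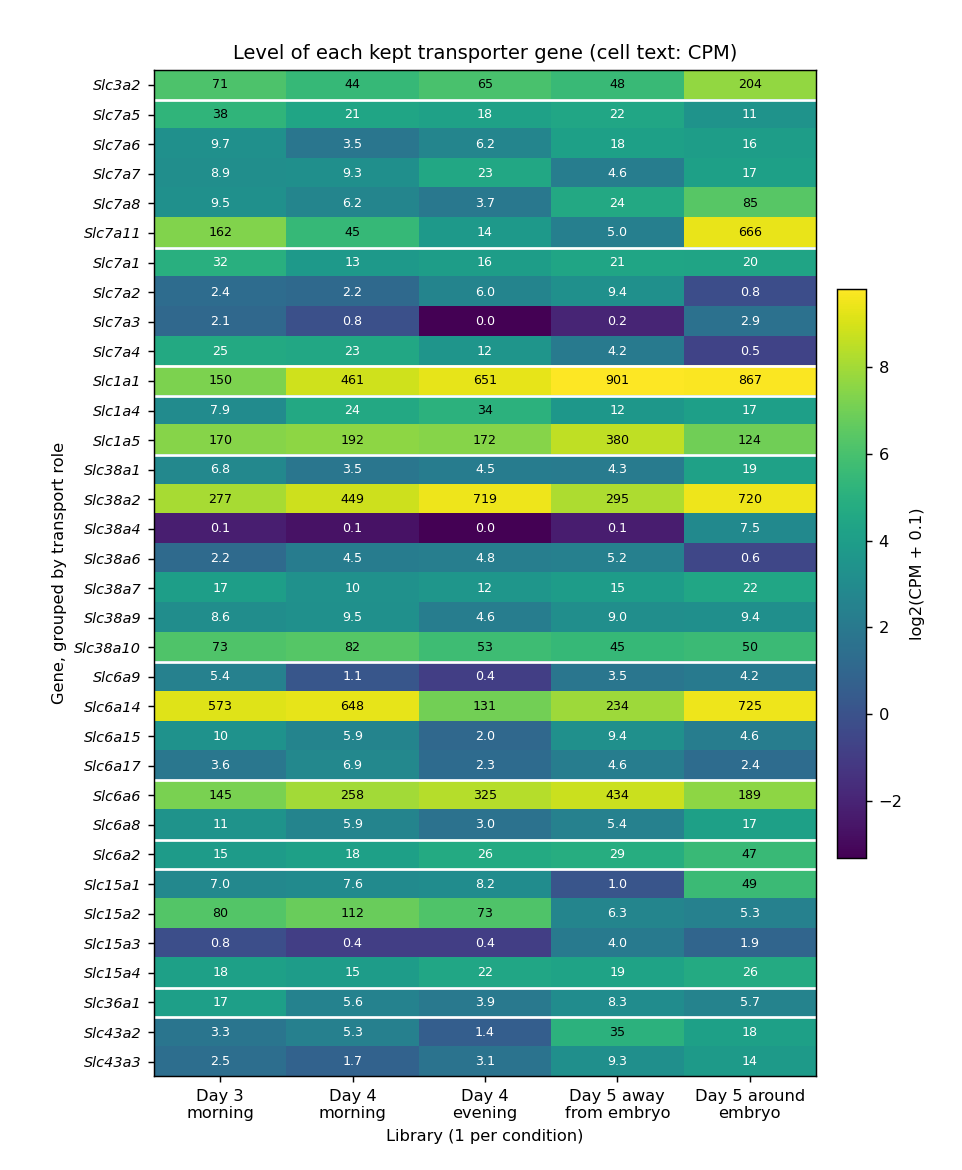
Heat map of the 34 kept members (rows, in blocks by transport role) in the 5 libraries (columns, 1 per condition), with colour as log2(CPM + 0.1) and the CPM written in each cell. Slc1a1, Slc38a2 and Slc6a14 are bright in most columns, and Slc7a11 is bright around the embryo at 666 CPM and dark away from it at 4.95 CPM.

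From day 3 morning to day 4 morning 2 of the 34 kept members rose and 6 fell, with 7.96% of all kept genes higher and 11% lower. Slc1a1 and Slc1a4 rose, and Slc6a9, Slc7a11, Slc36a1, Slc7a6, Slc7a1 and Slc7a3 fell. With library totals in place of TMM 2 members rose and 12 fell, while of all 12918 kept genes 538 were higher and 2209 lower. From day 4 morning to evening 2 rose and 9 fell, with 7.15% of all kept genes higher and 6.96% lower. Those that rose were Slc7a2 and Slc7a7. The 9 that fell, among them Slc6a14, Slc43a2 and Slc7a11, included all 4 kept amino acid transporters of the Slc6 family. The median change of the members was -0.17 in the first comparison and -0.08 in the second, while the medians over all kept genes lay from -0.02 to 0.04 in all 5 comparisons.

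From day 4 evening to day 5 away from the embryo 10 members were past the fold upwards and 7 downwards, with 12.7% of all kept genes higher and 12.9% lower, and a member median of 0.45. Of the 10, Slc15a3 passed the filter only through the library away from the embryo. Slc7a3 went from 0 to 3 counts, both at or under the floor, and its change cannot be read. From day 4 evening to day 5 around the embryo 16 members rose and 5 fell, with 19.3% of all kept genes higher and 20.4% lower, and a member median of 0.87. The 16 include Slc38a4, which passed the filter only through the library around the embryo, and Slc7a3, which passed only with that library and day 3 morning, so the filter had a part in both calls. Both comparisons share the day 4 evening library. Between the day 5 libraries 11 members were higher around the embryo and 8 lower, with 13.7% of all kept genes higher and 14.5% lower, and a member median of 0.20. The direction of this last median depended on the scaling, since it was -0.14 with library totals. A total of 30 kept members were past the fold in at least 1 comparison, as were 56% of all kept genes, and Slc38a10, Slc6a2, Slc15a4 and Slc38a7 in none.

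Slc3a2 (chr19:8706882-8723369), the heavy chain that anchors the Slc7 light chains in the membrane, was most abundant around the embryo. Its levels were 71.0, 44.1, 64.9, 47.6 and 204 CPM. The gene rose from day 4 evening to day 5 around the embryo by 1.65 log2 units [1.55, 1.75] and was 2.09 [1.99, 2.20] higher there than away from it, a ratio of 4.28. Slc3a1, the other heavy chain, had 1 to 6 counts per library and was not kept.

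Slc7a11 (chr3:50364936-50443613), the light chain of the cystine and glutamate exchanger xCT, which supplies cysteine for glutathione, fell at each step before attachment and was high around the embryo. It had 162, 44.6, 13.8, 4.95 and 666 CPM, from 2870, 797, 217, 93 and 11309 counts. The falls were -1.86 [-1.98, -1.75] to day 4 morning, -1.69 [-1.92, -1.48] to day 4 evening and -1.45 [-1.84, -1.12] to day 5 away from the embryo, the last of which was -0.59 on the log2(RPKM + 1) scale with library totals. From day 4 evening to day 5 around the embryo it rose by 5.58 log2 units [5.40, 5.80], a ratio of 48.3. The difference between the day 5 libraries, 7.04 [6.78, 7.38], was the largest of any kept member in these 5 comparisons, and the level around the embryo was 134 times that away from it.

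Slc7a8 (chr14:54722215-54781886), a light chain for neutral amino acids, was higher in both day 5 libraries. Its levels were 9.45, 6.16, 3.68, 24.0 and 84.8 CPM. It rose from day 4 evening by 2.67 log2 units [2.31, 3.13] away from the embryo and by 4.48 [4.15, 4.93] at its site, and the day 5 libraries differed by 1.82 [1.67, 1.98]. Slc7a6 (chr8:106168875-106198704), an exchanger of cationic for neutral amino acids, had 9.68, 3.47, 6.22, 17.5 and 15.96 CPM. It fell to day 4 morning (log2 change -1.45 [-1.92, -1.05]) and rose by day 5 in both libraries, by 1.48 [1.16, 1.83] and 1.34 [1.02, 1.71]. The change around the embryo was within the fold on the log2(RPKM + 1) scale with library totals.

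Slc7a7 (chr14:54369442-54417702), which exchanges the same classes of amino acids, had its highest level on day 4 evening. The levels were 8.94, 9.29, 23.2, 4.63 and 17.4 CPM, so the day 5 library around the embryo stayed near day 4 evening and the one away from it did not. It rose on day 4 by 1.31 log2 units [1.05, 1.59], fell away from the embryo (log2 change -2.29 [-2.68, -1.98]), and was 1.88 [1.56, 2.27] higher around the embryo than away from it. Exons of Slc7a7 share 228 of 2506 bases with Oxa1l on the opposite strand, and the strand setting of the counting is not given in the sources used here. Slc7a5 (chr8:121881146-121907686), the light chain for large neutral amino acids such as leucine, had 38.4, 20.9, 18.0, 21.9 and 10.5 CPM. It was highest on day 3 morning and lowest around the embryo, where it was lower than away from it (log2 change -1.05 [-1.32, -0.80]).

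All 10 light chain members, 5 of them kept, were summed per length and set against the heavy chain Slc3a2. The sum was 37.5, 16.9, 18.5, 19.3 and 108 RPKM, beside 24.0, 14.9, 21.9, 16.1 and 68.9 RPKM of Slc3a2. Whether each summed light chain binds Slc3a2 was not tested. The ratio of light to heavy chains ran from 0.842 on day 4 evening to 1.56 on day 3 morning and around the embryo. The most abundant light chain changed between libraries, from Slc7a11 on day 3 morning to Slc7a5 on day 4 morning and Slc7a7 on day 4 evening. Around the embryo it was Slc7a11. Away from the embryo Slc7a5 (6.25 RPKM, 5.66 to 6.88) was just above Slc7a8 (5.96 RPKM, 5.42 to 6.53). These counting intervals overlapped, so the order of Slc7a5 and Slc7a8 there is not settled. Slc7a11 made up 47.0%, 28.5%, 8.08%, 2.78% and 67.1% of the light chain sum. Without Slc7a11 the ratio around the embryo was 0.514, below the 0.774 to 1.16 of the other libraries.

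**Figure D2:**
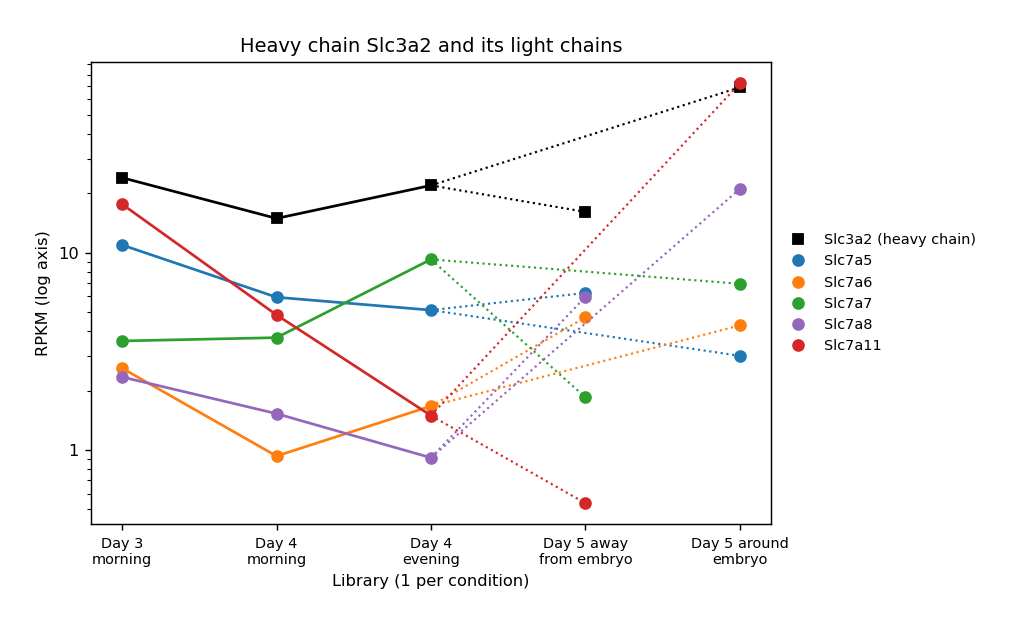
RPKM (log axis) of the heavy chain Slc3a2 (squares) and the 5 kept light chains (circles) in the 5 libraries, 1 per condition, with solid lines over days 3 and 4 and a dotted line from day 4 evening to each day 5 library. Slc7a11 goes from the lowest light chain away from the embryo, at 0.537 RPKM, to 72.2 RPKM around it, next to Slc3a2 at 68.9 RPKM.

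The cationic amino acid transporters, which take up arginine, lysine and ornithine, were at low to moderate levels. Slc7a1 (chr5:148327410-148399904), a widely expressed carrier of this group, had 31.7, 13.5, 15.7, 21.3 and 20.3 CPM and fell from day 3 morning to day 4 morning (log2 change -1.22 [-1.46, -1.01]). Slc7a4 (chr16:17572018-17576671), a relative of this group, had 25.4, 23.2, 11.6, 4.21 and 0.530 CPM, so each library was below the previous stage and the one around the embryo was lowest. Its change on day 4, -1.001 [-1.27, -0.75], was just past the fold and within it at -0.94 with library totals. Into day 5 it fell, with a change of -1.43 [-1.86, -1.07] away from the embryo and of -4.18 [-5.60, -3.49] around it. The change away from the embryo was within the fold on the log2(RPKM + 1) scale with library totals. Slc7a2 and Slc7a3, both under 10 CPM on average, are described after their values were seen. Slc7a2 had 43, 39, 95, 177 and 13 counts, and was lower around the embryo than away from it (log2 change -3.44 [-4.56, -2.81]). Slc7a3 had 37, 15, 0, 3 and 49 counts, at least 15.1-fold higher around the embryo than on day 4 evening, a bound set by the floor of 3 counts in the day 4 evening library.

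Slc1a1 (chr19:28835166-28913960), the sodium-coupled carrier of glutamate and aspartate, was the most abundant member per length from day 4 evening on, while in CPM Slc38a2 was above it on day 4 evening. Its levels were 150, 461, 651, 901 and 867 CPM. It rose from day 3 morning to day 4 morning by 1.62 log2 units [1.55, 1.68], and every later library was above day 4 morning. The later changes, 0.50 [0.46, 0.54] on day 4 and 0.47 [0.43, 0.50] or 0.41 [0.38, 0.45] into day 5, stayed within the fold, and that between the day 5 libraries was -0.06 [-0.09, -0.02]. The other 4 acidic amino acid transporters, Slc1a2, Slc1a3, Slc1a6 and Slc1a7, were not kept and had at most 26 counts in a library.

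Both neutral exchangers of the Slc1 family were kept and differed in course. Slc1a5 (chr7:16781346-16798274), which exchanges glutamine and other neutral amino acids, had 170, 192, 172, 380 and 124 CPM. It stood out in the library away from the embryo, where it was 1.14 [1.08, 1.21] above day 4 evening, and the level around the embryo was lower than that (log2 change -1.62 [-1.69, -1.55]). Slc1a4 (chr11:20302180-20332713), the exchanger of alanine, serine and cysteine, had 7.92, 24.4, 34.2, 12.4 and 16.9 CPM, with its peak on day 4 evening. It rose to day 4 morning by 1.61 log2 units [1.35, 1.91] and fell from day 4 evening, with a change of -1.46 [-1.70, -1.24] away from the embryo and one of -1.01 [-1.23, -0.81] next to it. The latter was within the fold, at -0.98, with DESeq2 size factors.

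Among the sodium-coupled neutral transporters of the Slc38 family, Slc38a2 (chr15:96687392-96699698), which takes up small neutral amino acids, was by far the most abundant. The levels were 277, 449, 719, 295 and 720 CPM. Day 4 evening and day 5 around the embryo were the highest and almost equal, with a change of 0.00 [-0.03, 0.04], and day 5 away from the embryo lay near day 3 morning. Slc38a2 fell from day 4 evening to day 5 away from the embryo (log2 change -1.29 [-1.33, -1.24]) and was 1.29 [1.24, 1.33] higher around it, or 0.95 with library totals, which is within the fold. Its neighbours on chromosome 15 are members too: Slc38a1 lies 44.5 kb and Slc38a4 295 kb from it. Slc38a1, another carrier of small neutral amino acids, had 6.85, 3.47, 4.51, 4.32 and 18.5 CPM. It rose from day 4 evening to day 5 around the embryo by 2.01 log2 units [1.67, 2.43] and was higher there than away by 2.07 [1.75, 2.47]. Slc38a4, known as a placental carrier of neutral and cationic amino acids, had 2, 1, 0, 2 and 127 counts and passed the filter only through the library around the embryo. The level there was at least 39.3-fold above day 4 evening, against the same floor of 3 counts.

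The remaining Slc38 members were low or varied little. Slc38a6 had 39, 80, 75, 98 and 10 counts and was lower around the embryo than away (log2 change -2.92 [-4.25, -2.21]). Slc38a9, the lysosomal arginine sensor, had 4.57 CPM on day 4 evening and 8.60 to 9.52 CPM in the other libraries. Slc38a10, at 45.0 to 81.6 CPM, and Slc38a7, a glutamine exporter of lysosomes at 10.1 to 21.6 CPM, stayed within the fold in all 5 comparisons. Slc38a1, Slc38a4, Slc38a6 and Slc38a9 were described after their values were seen.

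Slc6a14 (chrX:21714900-21742357), a sodium- and chloride-coupled carrier that concentrates neutral and cationic amino acids, was high on day 3, on day 4 morning and around the embryo. It had 573, 648, 131, 234 and 725 CPM. The gene fell from day 4 morning to evening (log2 change -2.30 [-2.37, -2.23]) and rose from there to day 5 around the embryo by 2.46 log2 units [2.40, 2.53]. Away from the embryo the change was 0.83 [0.76, 0.91], within the fold but 1.07 with library totals, and the day 5 libraries differed by 1.63 [1.58, 1.68]. The other 3 kept amino acid carriers of the family, Slc6a9, Slc6a15 and Slc6a17, were also lowest on day 4 evening, at 0.444, 2.03 and 2.29 CPM, among levels of at most 10.4 CPM. Slc6a17 was almost as low around the embryo, at 2.41 CPM. Its change from day 4 evening was 0.08 [-0.60, 0.77], so the order of these levels is not settled. All 4 kept amino acid carriers of the family fell from day 4 morning to evening. The interval of Slc6a9, the glycine transporter, was wide at -1.08 [-2.75, 0.05], on 19 and 7 counts, and its exons share 46 of 3272 bases with Ccdc24 on the opposite strand.

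Slc6a6 (chr6:91684067-91759063), the taurine transporter, increased at each stage up to day 5 away from the embryo without a step past the fold. Its levels were 145, 258, 325, 434 and 189 CPM. Around the embryo it was lower than away from it (log2 change -1.20 [-1.26, -1.14]), while the change from day 4 evening was -0.78 [-0.85, -0.72]. Slc6a8, the creatine transporter, is described after its values were seen. With 10.6, 5.88, 2.98, 5.43 and 17.5 CPM it was lowest on day 4 evening, and it rose from there to day 5 around the embryo by 2.51 log2 units [2.10, 3.03]. Slc6a2, the noradrenaline transporter, stayed within the fold at 14.5 to 47.3 CPM, highest around the embryo.

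The peptide transporters showed a change of member. Slc15a2 (chr16:36750164-36784962), the high-affinity carrier of dipeptides and tripeptides, had 80.0, 112, 73.3, 6.29 and 5.30 CPM. Both day 5 libraries were far below all 3 earlier ones, with falls from day 4 evening of -3.52 [-3.83, -3.27] away from and -3.76 [-4.12, -3.48] next to the embryo, or 11.7- and 13.8-fold. Slc15a1 (chr14:121459621-121505254), the low-affinity, high-capacity carrier known from the intestine, had 7.02, 7.61, 8.19, 1.01 and 49.0 CPM, from 124, 136, 129, 19 and 832 counts. It was nearly level over days 3 and 4 and then went opposite ways, with a change from day 4 evening of -2.88 [-3.79, -2.31] away from the embryo and of 2.56 [2.31, 2.86] next to it. The day 5 libraries differed by 5.45 log2 units [4.94, 6.34]. Slc15a4, an endolysosomal carrier of histidine and dipeptides, stayed within the fold at 15.4 to 26.3 CPM. Slc15a3, a related endolysosomal carrier, had 14, 8, 7, 76 and 32 counts and rose into both day 5 libraries, by 2.90 [2.08, 4.55] and 1.84 [0.88, 3.51]. Exons of Slc15a3 share 87 of 2345 bases with Tmem132a on the opposite strand. Per length, Slc15a2 was the highest of the family on day 4 evening, at 17.5 RPKM, Slc15a4 away from the embryo at 7.21 RPKM, and Slc15a1 around it at 15.7 RPKM.

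**Figure D3:**
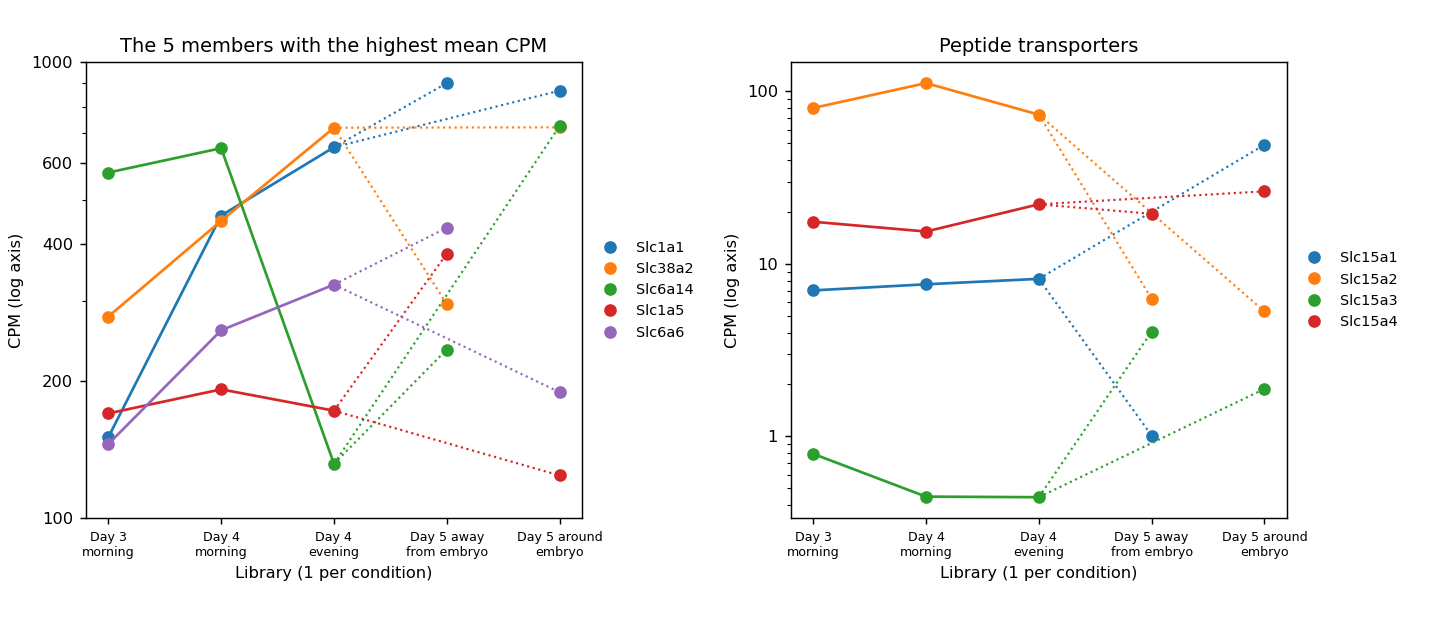
CPM (log axes) of the 5 members with the highest mean level (left) and of the 4 kept peptide transporters (right) in the 5 libraries, 1 per condition, with solid lines over days 3 and 4 and dotted lines from day 4 evening to each day 5 library. Slc6a14 and Slc38a2 reach 725 and 720 CPM around the embryo, against 234 and 295 CPM away from it, Slc15a2 is at 6.29 and 5.30 CPM in the day 5 libraries, and Slc15a1 splits to 1.01 and 49.0 CPM.

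Slc43a2 (chr11:75531694-75577572), which lets large neutral amino acids leave the cell by facilitated diffusion, was low until day 4 evening and high in both day 5 libraries. It had 3.34, 5.26, 1.40, 34.6 and 17.8 CPM. After a fall on day 4 from 94 to 22 counts (log2 change -1.83 [-2.65, -1.23]), which was -0.49 on the log2(RPKM + 1) scale, it rose by 4.52 log2 units [4.02, 5.31] away from the embryo and by 3.57 [3.05, 4.37] around it. Slc43a3 had 2.55, 1.68, 3.11, 9.27 and 14.4 CPM and rose into both day 5 libraries by 1.54 [1.11, 2.06] and 2.17 [1.76, 2.68]. Slc36a1, the proton-coupled carrier of small amino acids in lysosomes, had 17.3, 5.60, 3.87, 8.31 and 5.71 CPM and fell from day 3 morning to day 4 morning (log2 change -1.60 [-1.96, -1.29]).

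Sorted by their changes from day 4 evening, 8 members were past the fold upwards in both day 5 libraries, 3 downwards in both and 9 in neither, beside 8.59%, 8.58% and 53.4% of all kept genes. The 8 were Slc7a8, Slc43a2, Slc7a6, Slc6a15, Slc43a3, Slc6a9, Slc15a3 and Slc7a3, of which Slc7a3 cannot be read away from the embryo. Slc15a3 passed the filter only through the library away from the embryo. Slc7a3 passed it only with the library around the embryo and day 3 morning, so the filter had a part in both calls. The 3 members downwards in both were Slc15a2, Slc1a4 and Slc7a4. Slc38a2, Slc1a5, Slc7a7 and Slc36a1 were past the fold away from the embryo only, as were 6.87% of all kept genes. A further 8 members were past it around the embryo only, among them Slc6a14 and Slc3a2, beside 21% of all kept genes. These 8 include Slc38a4, which passed the filter only through the library around the embryo. Slc7a11 and Slc15a1 were past the fold in opposite directions, as were 1.55% of all kept genes, and both fell away from the embryo and rose around it. Since these sorted values share 1 day 4 evening library, the number of members in each class describes these 3 libraries. The luminal epithelial markers moved as well: from day 4 evening 4 of 8 fell and none rose away from the embryo, with a median of -0.81, and 3 rose and 1 fell around it, with a median of 0.86. Krt19 fell 11.8-fold and Elf3 7.05-fold away from the embryo. In the comparison of the day 5 libraries themselves, 6 of 8 luminal epithelial markers were also higher around the embryo and none lower, with a median difference of 1.47.

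**Figure D4:**
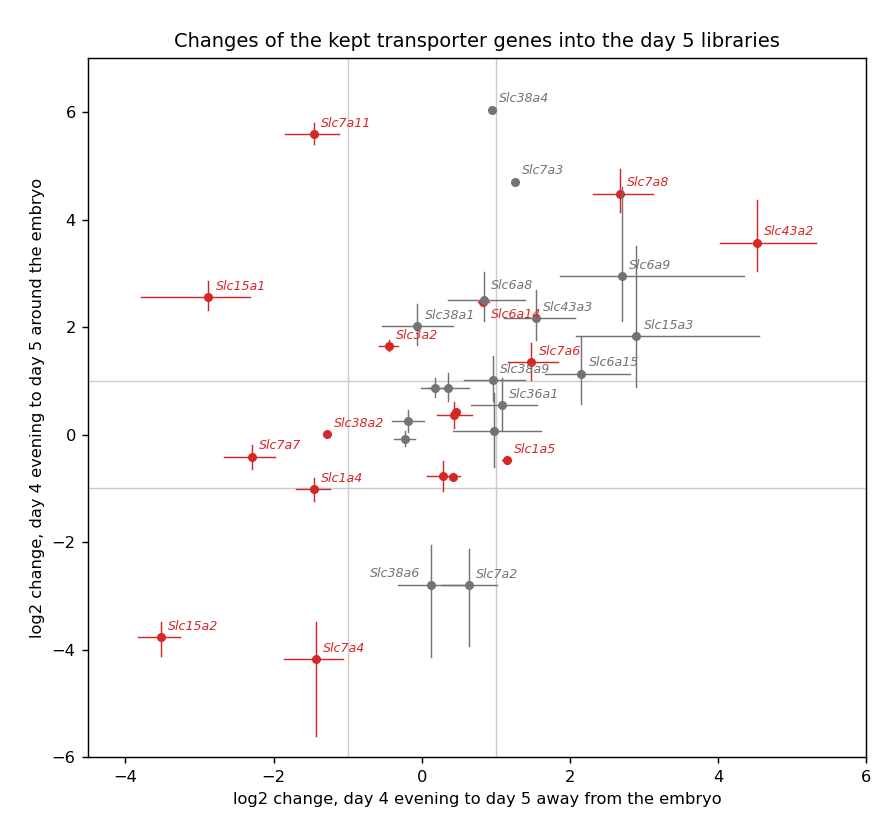
Log2 change of CPM from day 4 evening to day 5 away from the embryo (horizontal) against that to day 5 around the embryo (vertical) for the 34 kept members, with bars for the 95% counting interval, grey lines at the 2-fold limits, and red for members described with values in every library by the fixed rule. Slc7a11 and Slc15a1 lie in the upper left field, Slc15a2 and Slc7a4 at the lower left, and Slc7a8 and Slc43a2 at the upper right, and bars without an upper limit are not drawn.

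Genes connected with amino acid supply were counted in 4 fixed lists, to be read beside the shares of all kept genes higher and lower. These shares were 7.96% and 11% to day 4 morning, and 7.15% and 6.96% to day 4 evening. Into day 5 they were 12.7% and 12.9% away from the embryo, and 19.3% and 20.4% around it. Between the day 5 libraries they were 13.7% and 14.5%. Of 20 amino acid response genes of Atf4, the transcription factor induced when amino acids run short, 12 were higher around the embryo than away from it and none lower, with a median of 1.22 beside -0.02 over all kept genes. The list was not recounted with library totals, which moved the median of all kept genes between the day 5 libraries to -0.36. From day 4 evening to day 5 around the embryo 8 genes of the list rose and 1 fell. Trib3, a pseudokinase of this response, had 6.62, 5.37, 2.35, 35.2 and 149 CPM, and Ddit4, an inhibitor of mTORC1, had 18.2, 20.8, 4.13, 9.16 and 43.5 CPM. Nupr1, a stress-induced nuclear protein, had 56.0, 8.01, 197, 796 and 1568 CPM, higher in both day 5 libraries than in any earlier one. Atf4 itself went from 146 to 221 CPM between the day 5 libraries, a difference of 0.60 within the fold. From day 4 evening to day 5 away from the embryo 6 genes of this list rose and 4 fell. On days 3 and 4 more fell than rose, 5 against 2 and then 7 against 2.

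Of 22 genes of lysosomal amino acid sensing by mTORC1, 1 was higher around the embryo than away from it and 5 were lower. Over all kept genes the shares were 13.7% and 14.5%. Sesn1, a leucine sensor family member, had 24.3, 64.5, 13.3, 9.16 and 3.24 CPM, and Depdc5, a part of the complex that restrains mTORC1, had 11.5, 33.3, 21.8, 16.9 and 6.48 CPM. Lamtor4, which holds the complex on lysosomes, had 51.3, 67.4, 62.8, 48.4 and 20.02 CPM. Mtor itself ranged from 11.1 to 21.0 CPM. In the other comparisons the list had 4 higher and 1 lower, 1 and 1, and 1 and 1 up to day 5 away from the embryo, and 1 and 4 from day 4 evening to day 5 around it.

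Of 12 kept other amino acid carriers and partners, 3 were higher and 3 lower around the embryo than away from it. For this list and the next, the shares over all kept genes were 13.7% and 14.5%. Slc25a29, a mitochondrial carrier of basic amino acids, had 5.26, 2.74, 1.02, 2.45 and 42.6 CPM, and Slc25a15, the mitochondrial ornithine carrier, had 13.3, 14.0, 14.3, 40.6 and 133 CPM. Slc25a13, the mitochondrial aspartate and glutamate carrier, had 105, 46.9, 77.2, 25.9 and 34.9 CPM. Of 17 kept genes of amino acid use and glutathione precursors, 6 were higher and 4 lower around the embryo than away from it. Arg1, which splits arginine into ornithine and urea, had 5.32, 1.90, 1.78, 2.56 and 109 CPM. Surface peptidases fell in different places: Anpep had 229, 329, 307, 18.6 and 22.8 CPM, and Dpp4 had 88.2, 45.1, 36.9, 129 and 6.95 CPM. For both lists the numbers higher and lower elsewhere were 0 and 2, and 2 and 1, to day 4 morning, and 0 and 1, and 2 and 2, to day 4 evening. Into day 5 they were 2 and 2, and 5 and 5, away from the embryo, and 3 and 2, and 5 and 6, around it.

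The other 32 members were not kept. Of these, 9 had 0 counts in every library, which allows up to 3 counts, or 0.160 to 0.190 CPM, in each. Among them were Slc6a3, Slc6a19, Slc7a12 and Slc15a5. The remaining 23 had at most 30 counts in any library. Slc6a12, the betaine transporter, had 2, 0, 0, 0 and 30 counts. Slc43a1, a facilitated carrier of large neutral amino acids, had 7, 8, 14, 30 and 16 counts. Slc36a2, a carrier of small amino acids, had 16, 16, 0, 20 and 1 counts.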

How the data were processed

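RNA of the uterine luminal layer was measured in 5 libraries, 1 per condition, from wild-type mice. Per the labels, RNA was amplified with SMART-seq v.4, and the submitters' processing notes name GRCm38/mm10, HISAT2 and featureCounts of Subread (v.2.0.0). The paper's methods describe laser microdissection and paired-end reads for Lif-floxed and Lif-deleted uteri, and its text cites an earlier report for epithelium around the time of attachment, so the dissection of these libraries is taken from that description. The annotation, the strand setting and the treatment of reads with several alignments are not given in the sources used here. The authors deposited raw read counts per gene, whole numbers without normalization, in 1 table of 23420 genes that also holds positions and the gene length in bases. A total of 27 names in date form were kept as they stand. No sample column was left unused.

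Counts were scaled in R 4.3.3 with edgeR 4.0.16 (TMM on genes averaging 1 CPM or more, full library totals), and CPM and RPKM were computed from these sizes and the deposited length. Log2 CPM carried a prior count of 2. The study's method was edgeR with a false discovery rate. With 1 library per condition the spread cannot be estimated from these data, so a log2 change beyond 1 was used with no p-value. Depth limited low genes to a floor of 3 counts, and counting intervals do not cover PCR duplication, since the counts carry no molecular identifiers. Python 3.11.15, pandas 2.3.3, numpy 2.4.6, scipy 1.17.1 and matplotlib 3.10.9 were used for the rest, and the scripts were tested on simulated counts. Upstream sequences came from RefSeq (GRCm38.p6) and gene types from GENCODE vM21.

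The members and the gene lists were chosen with earlier results of these data known. Described with values in every library were kept members with a mean of at least 10 CPM and a change past the fold in at least 1 comparison, and the partners of Slc3a2, 17 in all. From the fixed lists, up to 3 genes each were named by their largest change at a mean of at least 10 CPM, plus Atf4 and Mtor. Lower members given in detail were picked after their values were seen. Alternatives were DESeq2 1.42.0 size factors, library totals, totals without Rn45s and Lars2, prior counts of 0.5 and 5, log2(RPKM + 1), no filter, a mean of at least 5 CPM, and stricter calls. A scaling without the library around the embryo was added after the data had been seen.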

Additional observations from a re-analysis of the deposited data

Results flagged for a closer look

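Of the kept members, 2 were past the 2-fold limit in opposite directions in the day 5 libraries when each was compared with day 4 evening. For Slc7a11 the change around the embryo was 5.58 and that away from it -1.45 on the log2 scale, a difference of 7.04. For Slc15a1 the changes were 2.56 and -2.88, a difference of 5.45. With 1 library per condition these differences were not tested. Both differences rest on both day 5 libraries. In the library around the embryo Cdx2, Nanog, Pou5f1 and Gata4 were counted and the summed decidual and smooth muscle markers were higher. In the library away from the embryo Slc7a11 had 93 counts and Slc15a1 19 counts. From day 4 evening 4 of 8 luminal epithelial markers fell there and none rose. The part of all these markers was not tested. The fall of Slc7a11 away from the embryo was within the fold on the log2(RPKM + 1) scale with library totals.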

How the results depend on the processing

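Of 42 named changes past the fold, 41 stayed past it with DESeq2 size factors, 40 with library totals, 40 with totals without Rn45s and Lars2, 42 and 41 with prior counts of 0.5 and 5, and 35 with log2(RPKM + 1). Without the library around the embryo, 20 of 21 stayed past it, Slc7a4 on day 4 being the exception at -0.998. None of the results with a call changed direction. Library totals moved the median of all genes to -0.29 from day 3 to day 4 morning, 0.23 into day 5 away from the embryo, -0.11 into day 5 around it and -0.36 between the day 5 libraries, and totals without Rn45s and Lars2 to -0.14, 0.14, -0.17 and -0.33. In these comparisons the numbers of genes higher and lower went from 1028 and 1420 to 538 and 2209, from 1644 and 1663 to 2250 and 1264, from 2489 and 2637 to 2268 and 2884, and from 1768 and 1872 to 1288 and 2807 with library totals. Without Rn45s and Lars2 they were 731 and 1816, 1996 and 1403, 2149 and 3051, and 1310 and 2707. The member median between the day 5 libraries changed sign, at -0.14 with library totals, -0.11 without Rn45s and Lars2 and -0.10 with log2(RPKM + 1), and that from day 4 morning to evening at 0.10 with a mean of at least 5 CPM and 0.04 without the library around the embryo.

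Member counts moved as follows, from fewer or more genes tested or a stricter call where these were the setting, and otherwise the cause was not tested. Apart from the scalings by totals above, the shares of all genes under these settings are not given here. The counts therefore describe the processing and are not read as results about the members. From day 3 to day 4 morning 12 members fell with library totals, beside 2209 of all 12918 kept genes. In the same comparison 6 rose and 11 fell without a filter, and 3 fell beyond 1.5. From day 4 morning to evening 1 rose and 2 fell with log2(RPKM + 1), 7 rose without a filter, 1 rose with a mean of at least 5 CPM, 1 rose and 5 fell where the whole interval had to lie beyond 1, and 0 rose and 5 fell beyond 1.5. Into day 5 away from the embryo 14 fell without a filter, and 6 rose and 3 fell beyond 1.5. Into day 5 around the embryo 10 rose and 3 fell with log2(RPKM + 1), 11 fell without a filter and 3 fell with a mean of at least 5 CPM. Between the day 5 libraries 7 were higher with log2(RPKM + 1) and 17 without a filter, while 5 were lower with a mean of at least 5 CPM, 5 where the whole interval had to lie beyond 1, and 4 beyond 1.5.

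No paired analysis was possible because each condition has 1 library, and for the same reason no replicate was left out. Slc38a4 and Slc7a3 passed the filter only with the library around the embryo, Slc7a3 also only with day 3 morning, and Slc15a3 only with the library away from the embryo.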
